A study of Homo sapiens with 6 samples.

Results

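The genes followed here were the 10 urea cycle and nitrogen-handling genes *NAGS*, *CPS1*, *OTC*, *SLC25A15*, *ASS1*, *ASL*, *ARG1*, *ARG2*, *GLS2* and *GLUD1*, taken by name from a table of 20026 genes. Their gene IDs in the table, in that order, were 162417, 1373, 5009, 10166, 445, 435, 383, 384, 27165 and 2746. All 10 had at least 1 count in a library. Of the 10, 9 passed the filter on low counts in all 3 comparisons, and *OTC* passed it in none. A further 133 genes around the pathway (transporters, glutamine and ammonia genes, ornithine and polyamine genes, amino acid catabolism, pyrimidine synthesis, regulators and zonation genes) were listed by name, and 128 of them were in the table.

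Messenger RNA was sequenced from HepG2, a human liver cancer cell line, in 3 groups of 2 libraries each. Scr cells, with the genotype entry WT, were the scramble control and came from cells given the Cas9-GFP plasmid without a targeting guide. In cells of the miR-23a KO group and the miR-27a KO group, a pair of CRISPR guides had cut on both sides of the named mature miRNA, and colonies had been grown from single sorted cells. The comparisons ask which genes differ after editing at either miRNA of the shared cluster. Whether the 2 libraries of a group are separate clones or cultures is not given in the labels, so every p-value measures only the spread between these libraries. Anything that set a sequenced colony apart from the control cells cannot be told apart from loss of the miRNA. Neither these miRNAs nor their neighbours in the cluster were measured in these libraries, so the KO groups are taken from their labels, and loss of the named miRNA cannot be told apart from a change in a neighbour. Library totals ran from 14405250 to 16515261 estimated counts.

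The 2 miR-23a KO libraries stood apart from each other, and this bears on every value of that group below. Over 12974 tested genes with a known transcript, the median absolute log2 gap between the libraries of a group was 0.94 for miR-23a KO, 0.27 for Scr and 0.09 for miR-27a KO. The gap was over 1 on the log2 scale for 46.9% of these genes in the miR-23a KO pair, against 6.73% in the Scr pair and 1.98% in the miR-27a KO pair. The scaling factors by the trimmed mean of M-values were 0.792 and 1.14 for the miR-23a KO libraries 1 and 2, and lay between 0.982 and 1.04 for the other 4 libraries. Values of the 9 tested genes in miR-23a KO against Scr are therefore also given with each of its libraries left out.

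The urea cycle turns toxic ammonia into urea and runs in full mainly in hepatocytes around the portal vein. In the mitochondrion, carbamoyl phosphate is made from ammonia and bicarbonate and joined to ornithine to give citrulline, which leaves for the cytosol, takes up the nitrogen of aspartate and is split by way of argininosuccinate and arginine into urea and ornithine. Glutaminase and glutamate dehydrogenase release ammonia for the first step, and ornithine is also the starting point for polyamines and proline.

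The 2 mature miRNAs that the KO cells were made to lose are shown because their seeds, bases 2 to 8 and here in capitals, set which letters a target site holds. The sequences are from RefSeq on build GRCh38.p14, from the minus strand of chromosome 19, at chr19:13836595-13836615 for miR-23a-3p and chr19:13836447-13836467 for miR-27a-3p.
miR-23a-3p: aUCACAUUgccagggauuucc
miR-27a-3p: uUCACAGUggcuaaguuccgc
The letters that pair with these seeds, AATGTGA and ACTGTGA, were searched on the sense strand of each gene's longest 3′ UTR, taken from GENCODE release 29. The miR-23a-3p letters were in 2 of the 10 genes, *CPS1* and *ARG1*, against 19.3% of the 15885 genes with a 3′ UTR. Those of miR-27a-3p were in 0 of the 10, against 16.7% of all. The match in *CPS1*, the enzyme of the first committed step, begins at position 567 of 1122 UTR bases (chr2:210678552-210678558, plus strand), and that in *ARG1*, the cytosolic arginase, at position 386 of 424 (chr6:131584294-131584300, plus strand). Capitals mark the matched letters, shown with the bases on either side (chr2:210678544-210678566 and chr6:131584286-131584308).
CPS1: agttgagaAATGTGAcagaggca
ARG1: attcaaaaAATGTGAttttttat
A match is a run of letters and no measure of binding.

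Markers fixed by list were read against the HepG2 label. All 15 hepatocyte markers were in the table, with *SERPINA1* the most abundant and none under 1 CPM (counts scaled to a common library size) in all 6 libraries. Their summed level was 35798 and 43361 CPM in the Scr libraries, 43273 and 36911 CPM in miR-23a KO, and 27328 and 26951 CPM in miR-27a KO. The miR-27a KO sums thus lay below both Scr sums, and 6 of the 15 fell in miR-27a KO by the test described below (*AFP*, *ALB*, *APOA2*, *APOC3*, *FGB* and *RBP4*), beside 6.74% of all genes. Both miR-27a KO libraries lay below both Scr libraries for 10 of the 15, beside 31% of all genes. They lay above for 3, *SERPINA1*, *APOA1* and *HNF4A*, beside 33.4% of all, and these 3 did not pass the test. The median log2 fold change of the 15 was -0.58, beside 0.01 over all genes. A sum without *ALB* and *AFP*, chosen after their values were seen, tests nothing. The other 13 were led by *SERPINA1* (mean 10549 CPM over the 6 libraries). They summed to 23002 and 24447 CPM in Scr, 31514 and 15379 CPM in miR-23a KO and 25057 and 24612 CPM in miR-27a KO. That sum weighs abundant genes most and does not show that each of the 13 kept its level. In bulk RNA, fewer cells of a type and less RNA per cell cannot be told apart. Their part in the urea cycle results was not tested.

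Markers of other cells differed in level from list to list. The 5 cholangiocyte markers, led by *KRT19*, summed to 447 and 448 CPM in Scr, 334 and 253 CPM in miR-23a KO and 559 and 565 CPM in miR-27a KO, with *KRT7* and *CFTR* under 1 CPM in all 6 libraries. The 6 leukocyte markers summed to 536 and 562, 268 and 261, and 1608 and 1667 CPM in the same order, and *LYZ* (lysozyme) was the most abundant, while *PTPRC* and *CD3E*, which define leukocytes and T cells, were under 1 CPM throughout. Of 7 fibroblast markers 3 were in the table, at 213 and 181, 200 and 135, and 152 and 150 CPM, led by *ACTA2*, with *COL1A1* under 1 CPM. The 4 endothelial markers found of 5 summed to at most 6.97 CPM in a library (*PECAM1* the highest, *CDH5* and *TEK* under 1 CPM in all), and the 3 kidney tubule markers found of 5 to at most 3.22 CPM (*CUBN* the highest, *LRP2* under 1 CPM). In miR-27a KO against Scr the test called *LYZ* (log2 fold change 1.96) and *EPCAM* (1.33) higher and *PDGFRB* (-2.12) lower, beside 3.52% of all genes higher and 6.74% lower. Other markers on the lists of *LYZ* and *EPCAM* went the other way. By edgeR the leukocyte marker *CD68* was lower in both libraries (-0.58, adjusted *p* = 0.0166), at under 1.5-fold. The cholangiocyte marker *KRT19* was also lower in both and did not pass (-0.31, adjusted *p* = 0.0589). The part of all these markers in the results below was not tested.

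Levels between genes were compared per length, as TPM (counts scaled by transcript length and library size) over the 6 libraries. *GLUD1* (mean 605 TPM, libraries from 296 to 734) and *ASS1* (mean 378, from 173 to 461) were the most abundant and overlapped. *ASL* (mean 120), *SLC25A15* (96.6) and *ARG2* (80.1) followed, all between 55.7 and 153 TPM and overlapping with one another, with a gap to *ASS1* above and to the next gene below. *NAGS* (26.8), *GLS2* (17.6) and *CPS1* (10.3) also overlapped, between 3.59 and 33.4 TPM. *ARG1* (mean 1.48 TPM, at most 4.42) and *OTC* (mean 0.454, at most 0.823) were at the bottom and overlapped. So the steps from citrulline to arginine had abundant mRNA in these cells, while that for the step making citrulline was near the limit of detection. The mitochondrial arginase *ARG2* was far above the cytosolic *ARG1*, the form that dominates in liver.

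**Figure D1:**
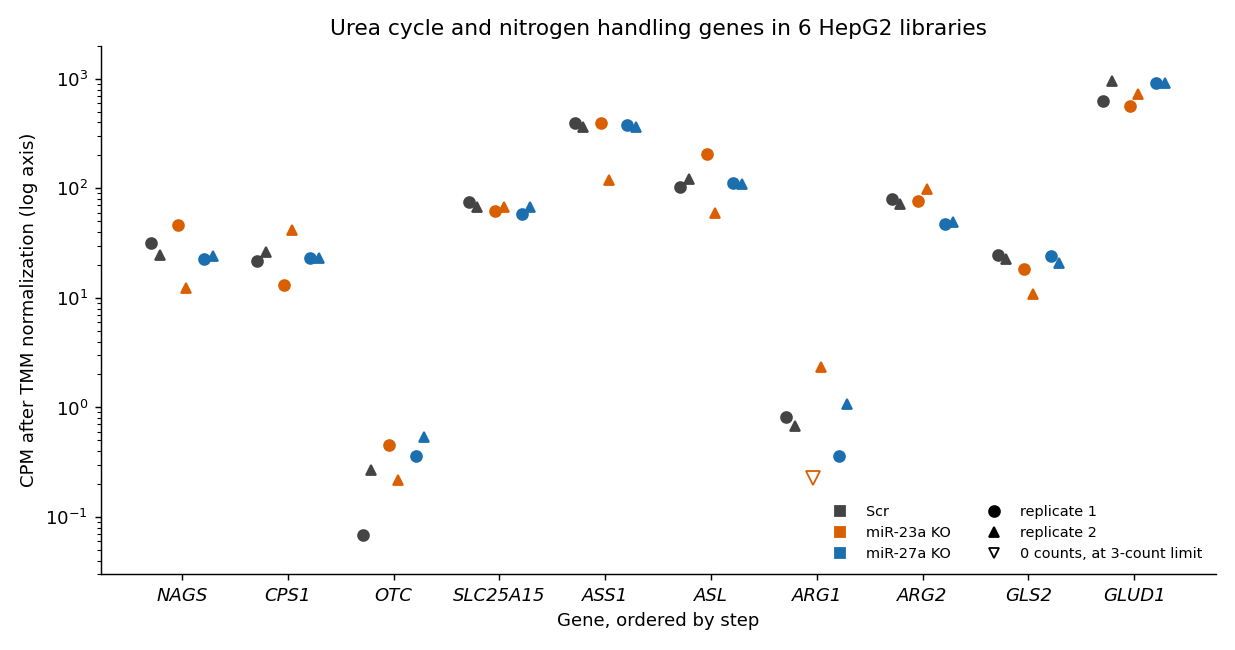
Level of each of the 10 genes in each library (CPM, log axis), with 2 libraries in each of the 3 groups. The miR-27a KO libraries of *ARG2* (47.2 and 49.4 CPM) sit below both Scr libraries (79.3 and 71.5 CPM), and the miR-23a KO libraries of *ASS1*, *ASL*, *NAGS* and *CPS1* lie far apart.

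*NAGS* makes N-acetylglutamate, the activator that carbamoyl phosphate synthetase needs. It measured 32.0 and 24.8 CPM in Scr, 45.9 and 12.4 CPM in miR-23a KO and 22.9 and 24.2 CPM in miR-27a KO. Both miR-27a KO libraries were below both Scr libraries, narrowly, and the miR-23a KO libraries lay on either side of Scr. *CPS1* makes the carbamoyl phosphate that carries ammonia into the cycle. Its level was 21.7 and 26.5 CPM in Scr, 13.1 and 41.4 CPM in miR-23a KO and 23.4 and 23.1 CPM in miR-27a KO. The miR-27a KO values fell between the Scr values, and the miR-23a KO libraries again lay on either side, with the high and low libraries the other way round from *NAGS*.

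By edgeR's quasi-likelihood test, the log2 fold change in miR-27a KO against Scr was -0.29 for *NAGS* (SE 0.17, Benjamini-Hochberg adjusted *p* = 0.298; -0.08 without Scr library 1, -0.46 without Scr library 2 with an adjusted *p* of 0.00720 and under 1.5-fold, and -0.0089 with counts corrected for GC content and length) and -0.07 for *CPS1* (SE 0.15, adjusted *p* = 0.778, but 0.08 without Scr library 2, -0.20 without Scr library 1 and -0.26 with the correction). In miR-23a KO against Scr it was 0.04 for *NAGS* (SE 0.63) and 0.24 for *CPS1* (SE 0.63), each with an adjusted *p* of 0.9996. Without miR-23a KO library 1 these became -1.19 and 0.78, and without library 2 they became 0.67 and -0.90, so each direction turned with the library left in. Leaving out Scr library 2 also turned *NAGS*, to -0.14. *CPS1* holds the miR-23a-3p seed letters, and its miR-23a KO libraries lay on both sides of Scr. Whether miR-23a-3p acts on *CPS1* was not tested.

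*OTC*, which joins carbamoyl phosphate to ornithine, had 1 and 4 counts in Scr, 6 and 4 counts in miR-23a KO and 6 and 9 counts in miR-27a KO. The highest library was 0.541 CPM and the lowest 0.0684 CPM. The miR-27a KO libraries were above the Scr libraries by a few counts, but with so few counts the gene was not tested in any comparison. *SLC25A15* is the carrier that brings ornithine into the mitochondrion and takes citrulline out. It measured 74.95 and 67.7 CPM in Scr, 61.7 and 67.1 CPM in miR-23a KO and 58.7 and 68.2 CPM in miR-27a KO. The values of all 6 libraries were close, the miR-23a KO libraries just under the lower Scr library and the miR-27a KO libraries overlapping with Scr. The log2 fold change against Scr was -0.11 in miR-23a KO (SE 0.43, adjusted *p* = 0.9996) and -0.19 in miR-27a KO (SE 0.12, adjusted *p* = 0.327). With counts corrected for GC content and length, the value in miR-23a KO was 0.04, and it was -0.09 without miR-23a KO library 1 and -0.23 without library 2. The value in miR-27a KO was -0.10 without Scr library 1, and -0.08 and -0.29 without miR-27a KO library 1 or 2.

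*ASS1* condenses citrulline with aspartate. Its level was 396 and 365 CPM in Scr, 394 and 119 CPM in miR-23a KO and 377 and 360 CPM in miR-27a KO. Of the 6 libraries 5 were alike, with miR-27a KO library 2 just below Scr, and miR-23a KO library 2 alone was far lower. *ASL* splits the argininosuccinate into arginine and fumarate, and it measured 103 and 121 CPM in Scr, 207 and 60.0 CPM in miR-23a KO and 111 and 110 CPM in miR-27a KO. For *ASL* the miR-27a KO libraries lay within Scr, while miR-23a KO library 1 was above and library 2 below all the others.

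For miR-27a KO against Scr the log2 fold change was -0.06 for *ASS1* (SE 0.09, adjusted *p* = 0.656) and -0.04 for *ASL* (SE 0.10, adjusted *p* = 0.828). Those signs turned with a single control library left out (0.01 for *ASS1* without Scr library 1, 0.08 for *ASL* without Scr library 2) and with the GC and length correction (0.16 and 0.19). For miR-23a KO against Scr the values were -0.57 for *ASS1* (SE 0.59) and 0.25 for *ASL* (SE 0.59), with an adjusted *p* of 0.9996 for both. Without miR-23a KO library 1, *ASS1* passed as lower (-1.68, adjusted *p* = 0.0249) and *ASL* turned to -0.90. Without library 2, *ASL* passed as higher (0.86, adjusted *p* = 0.0133) and *ASS1* turned to 0.03. Transcripts of both genes share 50-base stretches with other genes, 24.5% of those of *ASL* with the neighbouring gene AC068533.4 and 9.15% of those of *ASS1* with 11 genes, among them *ASS1* pseudogenes, so part of their reads could have been assigned elsewhere.

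*ARG1* is the cytosolic arginase of hepatocytes, which releases urea from arginine. It had 12 and 10 counts in Scr (0.821 and 0.672 CPM), 0 and 43 in miR-23a KO (0 and 2.36 CPM) and 6 and 18 in miR-27a KO (0.363 and 1.08 CPM). Both the lowest and the highest library were miR-23a KO, and the groups overlapped. A count of 0 in miR-23a KO library 1 allows up to 0.229 CPM, taking 3 counts as the limit and covering counting error only. The log2 fold change was 0.77 in miR-23a KO (SE 1.38, adjusted *p* = 0.9996) and -0.06 in miR-27a KO (SE 0.65, adjusted *p* = 0.958). In miR-23a KO it rested on library 2 alone, at 1.65 without library 1. Without library 2 the group held no count and the direction turned. In miR-27a KO it turned to 0.10 without Scr library 1 and to 0.52 without miR-27a KO library 1.

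*ARG2* is the mitochondrial arginase, found in many tissues, whose ornithine can go on to proline and polyamines. It measured 79.3 and 71.5 CPM in Scr, 77.4 and 99.4 CPM in miR-23a KO and 47.2 and 49.4 CPM in miR-27a KO. Both miR-27a KO libraries were the lowest of the 6, with a wide gap to the nearest Scr library, while the miR-23a KO libraries overlapped with Scr. *ARG2* fell 1.58-fold in miR-27a KO against Scr (log2 fold change -0.66, SE 0.10, adjusted *p* = 0.0209, lower in 2 of 2 libraries). In miR-23a KO the log2 fold change was 0.27 (SE 0.44, adjusted *p* = 0.9996), with 0.40 without library 1 and 0.016 without library 2. In miR-23a KO against miR-27a KO it was 0.86 (SE 0.33, adjusted *p* = 0.564).

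The fall of *ARG2* in miR-27a KO did not pass everywhere. With all 6 libraries in a single fit the adjusted *p* was 0.679, while the other 7 alternatives kept the call (adjusted *p* over the 8 from 0.000989 to 0.679). Without Scr library 1 the log2 fold change was -0.57, under 1.5-fold. Without miR-27a KO library 1 the adjusted *p* was 0.207 and without library 2 it was 0.185, at -0.62 and -0.68. The exons of *ARG2* overlap on 37.4% of their length with *VTI1B* on the opposite strand. How the counting treated strand is not given, so reads of the 2 genes cannot be told apart there. *VTI1B*, named after its values were seen, had 56.4 and 41.7 CPM in Scr, 30.9 and 42.9 CPM in miR-23a KO and 42.2 and 41.0 CPM in miR-27a KO (log2 fold change in miR-27a KO -0.26, SE 0.17, adjusted *p* = 0.345).

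*GLS2*, the liver-type glutaminase, frees ammonia from glutamine beside the cycle. It measured 24.9 and 22.6 CPM in Scr, 18.4 and 10.9 CPM in miR-23a KO and 24.1 and 21.0 CPM in miR-27a KO. Both miR-23a KO libraries were the lowest of the 6, and the miR-27a KO libraries overlapped with Scr. Against Scr, miR-23a KO had a log2 fold change of -0.68 (SE 0.51, adjusted *p* = 0.9996), and it was -1.13 without library 1 and -0.39 without library 2. In miR-27a KO it was -0.09 (SE 0.15, adjusted *p* = 0.694), but 0.01 without miR-27a KO library 2 and 0.05 with the GC and length correction. Its exons overlap on 77.1% of their length with *SPRYD4* on the opposite strand, which measured 13.6 and 16.9 CPM in Scr, 30.1 and 10.3 CPM in miR-23a KO and 24.8 and 23.9 CPM in miR-27a KO. *SPRYD4*, also named after its values were seen, was higher in both miR-27a KO libraries than in Scr and did not pass (0.66, SE 0.16, adjusted *p* = 0.0554), though it passed by DESeq2 (adjusted *p* = 0.0489) and without Scr library 2 (0.82, adjusted *p* = 0.00126). A further 5.65% of the exons of *GLS2* overlap with AC097104.1 on the same strand.

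*GLUD1*, glutamate dehydrogenase, releases ammonia from glutamate in the mitochondrion. It measured 631 and 952 CPM in Scr, 567 and 735 CPM in miR-23a KO and 914 and 914 CPM in miR-27a KO. The Scr libraries were far apart and held both miR-27a KO libraries between them, and miR-23a KO library 1 was the lowest of the 6. The log2 fold change against Scr was -0.24 in miR-23a KO (SE 0.49, adjusted *p* = 0.9996) and 0.19 in miR-27a KO (SE 0.19, adjusted *p* = 0.536). Its sign depended on the control library, with -0.54 and 0.08 in miR-23a KO without Scr library 1 or 2, and -0.06 and 0.51 in miR-27a KO, where the last had an adjusted *p* of 0.0000202 and was under 1.5-fold. In miR-23a KO it was -0.11 without library 1 of that group, -0.50 without library 2 and -0.014 with the GC and length correction. Its transcript shares 27.5% of its 50-base stretches with other genes, most with the retrocopy *GLUD2*, which had 0 counts in all 6 libraries. Its exons overlap on 13.2% of their length with *SHLD2* on the opposite strand, named after its values were seen, which measured 11.3 and 18.1 CPM in Scr, 20.8 and 37.7 CPM in miR-23a KO and 22.5 and 26.9 CPM in miR-27a KO. *SHLD2* was higher in all 4 KO libraries than in Scr and did not pass (1.04, SE 0.56, adjusted *p* = 0.9996 in miR-23a KO and 0.73, SE 0.25, adjusted *p* = 0.120 in miR-27a KO), though in miR-27a KO it passed with the replicate block (adjusted *p* = 0.0349) and without Scr library 2 (1.11, adjusted *p* = 0.00123).

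The genes that the miR-23a KO libraries split were ordered by base composition. Of the 9 genes tested, all 4 with a transcript GC content over 50% (*NAGS* 63.8%, *ASL* 59.4%, *ASS1* 57.4% and *GLS2* 54.0%) were higher in library 1, and all 5 under 50% were higher in library 2. The log2 gap, library 2 minus library 1, was -1.88 for *NAGS*, -1.78 for *ASL*, -1.73 for *ASS1* and -0.75 for *GLS2*. It was 0.12 for *SLC25A15* (GC 49.9%), 0.36 for *ARG2* (47.1%), 0.37 for *GLUD1* (46.4%), 1.65 for *CPS1* (43.8%) and 4.28 for the sparse *ARG1* (42.4%). The sign of the gap thus followed GC content in all 9.

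The same held across the table. Over the 12974 genes with a transcript, the gap correlated with GC content at r = -0.653 in miR-23a KO, -0.393 in Scr and -0.0397 in miR-27a KO, and over the 9 genes at r = -0.883 in miR-23a KO. These correlations are across genes, which share their libraries and are not independent replicates. After a smooth correction for GC content and length, the gap of *CPS1* was -0.10, while those of *NAGS*, *ASL* and *ASS1* were still -1.14, -1.34 and -1.42. It was -0.94 for *GLS2*, 3.62 for *ARG1*, and on the other side of 0 for *GLUD1* (-0.76), *ARG2* (-0.39) and *SLC25A15* (-0.12). Over the 9 genes the corrected gap still had r = -0.668 with GC content. Over all genes r was -0.00923, which follows from a correction fitted across the table and is no observed background. Whether preparation of these libraries or the cells differed was not tested.

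**Figure D2:**
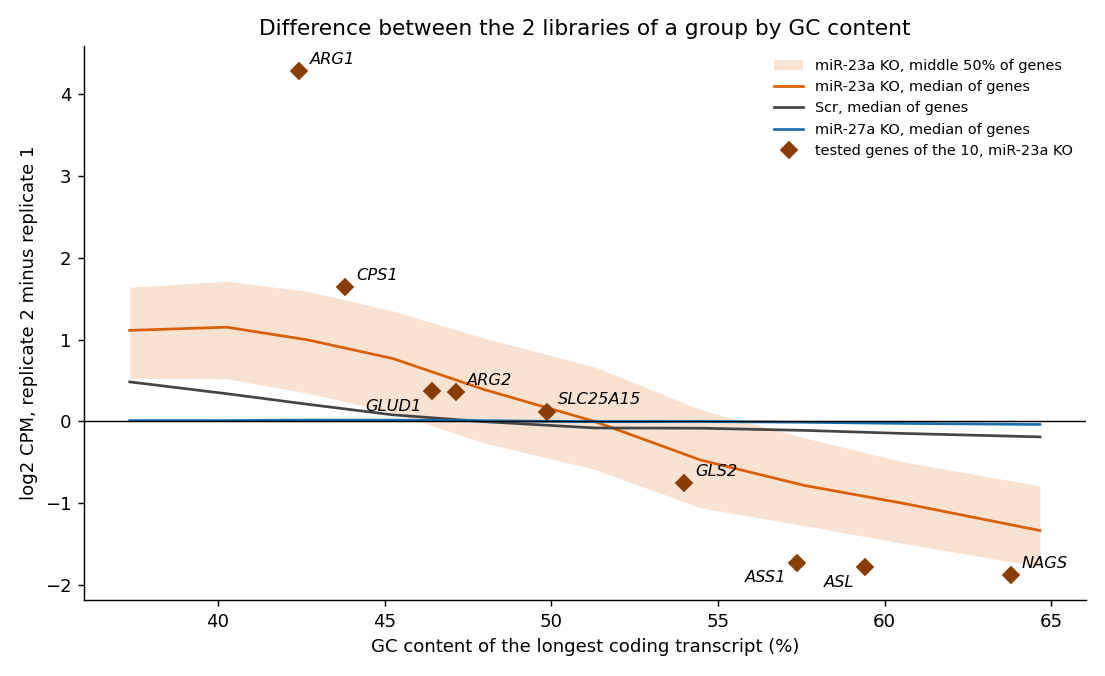
Log2 gap between the miR-23a KO libraries (library 2 minus library 1) against transcript GC content in percent, with lines for the median of 12974 genes by GC content (orange miR-23a KO with a band for its middle 50%, grey Scr, blue miR-27a KO) and diamonds for the 9 tested genes in miR-23a KO. The 4 genes over 50% GC lie below 0 and the 5 under 50% lie above 0.

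In miR-23a KO against Scr, which asks what differs in cells edited at miR-23a, the tested genes lay on both sides of Scr. Both libraries were below Scr for *GLS2* and *SLC25A15*, 2 of the 9 tested, beside 13.7% of all genes with such a pattern, and 0 of 9 lay above, beside 9.91% of all. None of the 9 passed a fold change over 1.5 with an adjusted *p* under 0.05. By edgeR 0 of 9 were called in either direction, beside 0% of 13786 genes higher and 0% lower, and 0 of 9 had an unadjusted *p* under 0.05, beside 2.41% of all. DESeq2 and limma also called 0 of the 9, beside 0.457% and 0% of all genes. Their median log2 fold change was 0.04, beside 0.16 over all genes. With miR-23a KO library 1 left out *ASS1* was called (-1.68), beside 4.12% of all genes, and with library 2 left out *ASL* was called (0.86), beside 18.6%. The coefficient of variation between libraries estimated by edgeR was 0.446 in this comparison and 0.159 in miR-27a KO against Scr.

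In miR-27a KO against Scr, which asks the same of cells edited at miR-27a, *ARG2* was the gene of the 10 that fell, and the libraries of *CPS1*, *ASS1* and *ASL* overlapped with those of Scr. By edgeR 1 of the 9 was called lower, beside 6.74% of 13820 genes, and 0 were called higher, beside 3.52%. An unadjusted *p* under 0.05 was found for 1 of the 9, *ARG2*, beside 32.2% of all. At the study's own threshold, an adjusted *p* under 0.001, 0 of the 9 were called, beside 0.0289% of all. Both libraries were lower than Scr for 2 of the 9, *ARG2* and *NAGS*, beside 31% of all genes, and higher for 0, beside 33.4%. DESeq2 and limma each called *ARG2* lower and none higher, beside 11.7% and 10.3% of all genes called in either direction. The median log2 fold change of the 9 was -0.07, beside 0.01 over all genes. The count of 1 became 0 without Scr library 1 (*ARG2* -0.57), without miR-27a KO library 1 (-0.62) and without library 2 (-0.68), while 15.98%, 2.96% and 2.34% of all genes were called in these fits.

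The KO groups were also set against each other, with no Scr library involved. *ARG2* was higher in both miR-23a KO libraries than in both miR-27a KO libraries, 1 of the 9 beside 19.7% of all genes, while *GLS2* and *GLUD1* were lower in both, 2 of the 9 beside 19.9%. By edgeR 0 of the 9 were called in either direction, beside 0% of 13841 genes higher and 0% lower, and 1 of the 9, *ARG2*, had an unadjusted *p* under 0.05, beside 8.72% of all. DESeq2 and limma called 0 of the 9, beside 3.45% and 0.224% of all genes. The median log2 fold change was 0.21, beside 0.11 over all genes. Log2 fold changes were 0.86 for *ARG2*, -0.64 for *GLS2* (SE 0.41) and -0.50 for *GLUD1* (SE 0.36). With the GC and length correction they were 1.11 for *ARG2*, -0.50 for *GLS2* and -0.11 for *GLUD1*.

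Calls between the KO groups appeared with either miR-23a KO library left out, 6 of the 9 each time, where the lone library is assumed to vary like the other group. A large part of the table was called in these fits too, 34.2% of all genes without library 1 and 51.4% without library 2. Without library 1, *ASL* was -0.92, *NAGS* -0.96, *CPS1* 0.80, *ASS1* -1.67, *GLS2* -1.09 and *ARG2* 1.00. Without library 2, *ASL* was 0.90, *NAGS* 0.96 and *CPS1* -0.82, the other way round, and *ARG2* was 0.68 and *GLUD1* -0.69. *ARG1* was also called without library 2, with no count left in its group. *ARG2* was thus higher than in miR-27a KO with either library, and *ASL*, *NAGS* and *CPS1* took opposite signs.

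**Figure D3:**
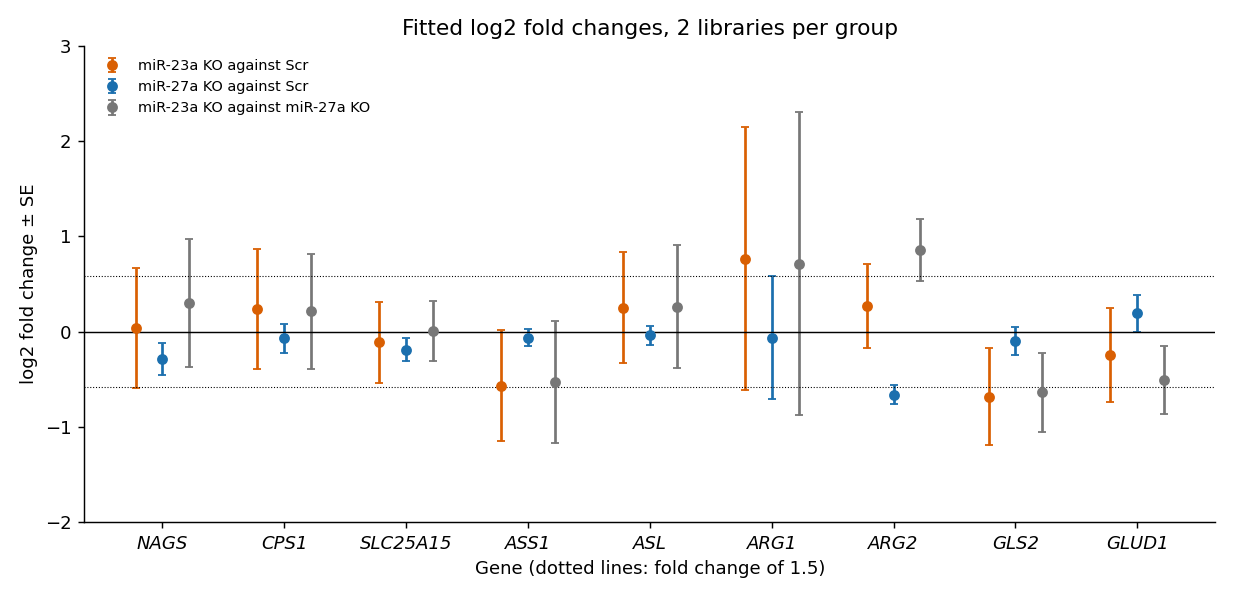
Log2 fold change of the 9 tested genes in each of the 3 comparisons, with bars of 1 standard error derived from the edgeR fit. The bars of the comparisons with miR-23a KO (SE 0.31 to 1.59) are wider than those of miR-27a KO against Scr (0.09 to 0.65), and *ARG2* in miR-27a KO (-0.66) is the point that passed the test.

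Around the 10 genes, 115 of the 128 further genes were tested in miR-27a KO against Scr, where 5 rose (4.35%) and 16 fell (13.9%), with a median log2 fold change of -0.12 beside 0.01 over all genes. Over all genes tested 3.52% rose and 6.74% fell, which is the background for each list that follows. In miR-23a KO against Scr edgeR called 0 of 115 (4 with an unadjusted *p* under 0.05, beside 2.41% of all genes, 2 by DESeq2, both lower, beside 0.457%, and 0 by limma, beside 0%), at a median of -0.07 beside 0.16. Between the KO groups it called 0 of 116 (13 with an unadjusted *p* under 0.05, beside 8.72% of all genes, 8 by DESeq2, beside 3.45%, and 1 by limma, beside 0.224%), at a median of 0.13 beside 0.11. Both comparisons against Scr use the same Scr libraries. With all 6 libraries in a single fit, 2 of the 16 in miR-27a KO still passed as lower, *BCAT1* and *PCK1*, and 0 of the 5 as higher, beside 0.452% of all genes called. Without miR-27a KO library 1, or without library 2, 8 passed as lower and 0 as higher, beside 2.96% and 2.34% of all genes called.

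Ornithine, the product of arginase, feeds the polyamines, and of 22 tested genes for ornithine, proline, polyamines, creatine and nitric oxide, 4 fell in miR-27a KO and 0 rose (median -0.19). *ODC1*, the ornithine decarboxylase that starts polyamine synthesis, had 403 and 376 CPM in Scr, 374 and 277 CPM in miR-23a KO and 220 and 226 CPM in miR-27a KO. *SRM*, spermidine synthase, had 493 and 508 CPM in Scr, 1507 and 343 CPM in miR-23a KO and 318 and 299.8 CPM in miR-27a KO. *SAT1*, which acetylates polyamines for export and breakdown, had 296 and 251 CPM in Scr, 156 and 159 CPM in miR-23a KO and 151 and 148 CPM in miR-27a KO. In each the miR-27a KO libraries were the lowest 2 of the 6, and for *SRM* the miR-23a KO libraries lay on either side of Scr.

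In miR-27a KO *ODC1* fell 1.77-fold (log2 fold change -0.82, adjusted *p* = 0.00888), *SRM* 1.64-fold (-0.71, adjusted *p* = 0.0107) and *SAT1* 1.85-fold (-0.89, adjusted *p* = 0.0133). *NOS2*, the inducible nitric oxide synthase that uses arginine, had 15.5 and 32.4 CPM in Scr, 22.4 and 9.33 CPM in miR-23a KO and 2.85 and 2.16 CPM in miR-27a KO. It fell 9.62-fold in miR-27a KO (-3.27, adjusted *p* = 0.0148), and its Scr libraries differed widely, so that it was -3.69 without Scr library 1 and -2.64 without library 2. *OAT*, which turns ornithine towards glutamate and proline, did not pass (0.17, adjusted *p* = 0.340, and -0.05 with the GC and length correction). Without miR-27a KO library 1 the adjusted *p* was 0.0836 for *ODC1*, 0.109 for *SRM* and 0.0551 for *SAT1*, and without library 2 it was 0.0845, 0.172 and 0.0813, so these 3 did not pass. *SRM* was also under 1.5-fold with the GC and length correction (-0.47).

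**Figure D4:**
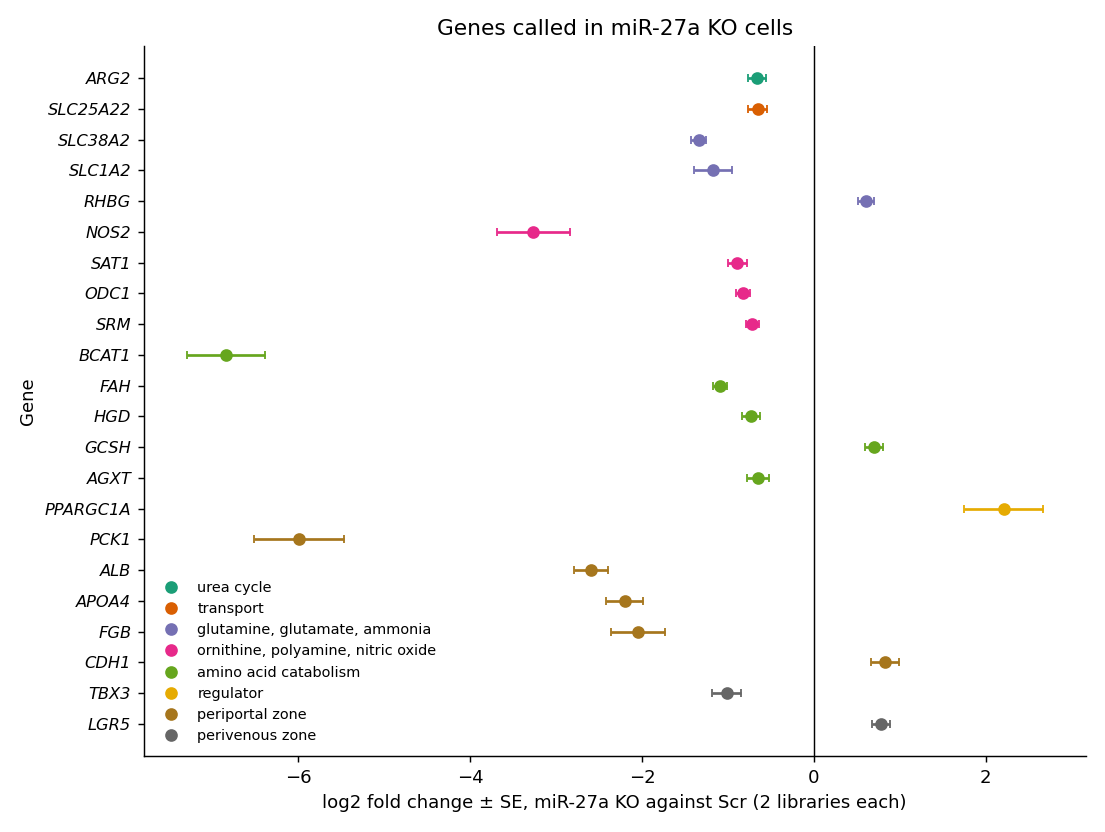
Log2 fold change in miR-27a KO against Scr of *ARG2* and the further nitrogen-handling genes that passed the test, coloured by list, with bars of 1 standard error. *ODC1* (-0.82), *SRM* (-0.71), *SAT1* (-0.89) and *NOS2* (-3.27) lie below 0, and the fitted values of *BCAT1* and *PCK1* rest on 8 and 2 counts in miR-27a KO.

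Among 15 tested genes of glutamine, glutamate and ammonia, 2 fell in miR-27a KO and 1 rose (median -0.27). *SLC38A2*, a glutamine and neutral amino acid importer, had 130 and 139 CPM in Scr, 50.2 and 311 CPM in miR-23a KO and 55.7 and 52.1 CPM in miR-27a KO. *SLC1A2*, a glutamate importer, had 10.9 and 13.9, 9.40 and 36.8, and 5.39 and 5.77 CPM in the same order. The miR-27a KO libraries were below Scr for both genes, and the miR-23a KO libraries were on either side of Scr. *SLC38A2* fell 2.54-fold (-1.34, adjusted *p* = 0.00400) and *SLC1A2* 2.25-fold (-1.17, adjusted *p* = 0.0307), and *RHBG*, an ammonium transporter, rose 1.53-fold (0.61, adjusted *p* = 0.0189).

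*GLUL*, the glutamine synthetase that captures ammonia the cycle leaves behind, had 8.89 and 9.94 CPM in Scr, 3.97 and 8.34 CPM in miR-23a KO and 11.2 and 14.0 CPM in miR-27a KO. Its miR-27a KO libraries were above and its miR-23a KO libraries below Scr, and it did not pass in miR-27a KO (0.40, adjusted *p* = 0.235). *SLC1A2* did not pass without miR-27a KO library 1 (adjusted *p* = 0.242), without library 2 (0.229) or without the filter on low counts (0.0515). *RHBG* did not pass without miR-27a KO library 1 (0.182), without library 2 (0.206) or without Scr library 1 (0.56, under 1.5-fold).

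Of 10 tested genes of transport and bicarbonate supply, 1 fell in miR-27a KO and 0 rose (median -0.09). *SLC25A22*, a mitochondrial glutamate carrier, had 57.8 and 53.4 CPM in Scr, 94.2 and 50.3 CPM in miR-23a KO and 37.4 and 34.2 CPM in miR-27a KO. The miR-27a KO libraries were the lowest of the 6. It fell 1.57-fold (-0.65, adjusted *p* = 0.0246), and did not pass with the GC and length correction (-0.40), without Scr library 1 (-0.58, under 1.5-fold), or without miR-27a KO library 1 or 2 (adjusted *p* = 0.176 and 0.299). *SLC25A13*, the aspartate and glutamate carrier that supplies *ASS1* with aspartate, was 0.08 (adjusted *p* = 0.601, and -0.11 with the correction). *CA5A*, which supplies bicarbonate to *CPS1*, was 0.07 (adjusted *p* = 0.767, and -0.05 with the correction). *SLC25A2*, a further ornithine carrier, was not analysed here. Of 5 tested pyrimidine genes 0 were called in either direction by edgeR (0 with an unadjusted *p* under 0.05, median -0.08), and *CAD*, which makes carbamoyl phosphate in the cytosol, was -0.02 (adjusted *p* = 0.953), but 0.19 without Scr library 1 and 0.03 without miR-27a KO library 2.

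Amino acid catabolism brings nitrogen to the cycle, and of its 28 tested genes 4 fell in miR-27a KO and 1 rose (median 0.07). *FAH*, the last enzyme of tyrosine breakdown, had 183 and 181 CPM in Scr, 301 and 107 CPM in miR-23a KO and 84.7 and 88.3 CPM in miR-27a KO. *HGD*, earlier in the same route, had 164 and 148, 139 and 127, and 90.0 and 100.3 CPM. *BCAT1*, which moves nitrogen off branched-chain amino acids, had 27.6 and 28.9, 26.1 and 80.7, and 0.0606 and 0.421 CPM. All 3 were lowest in the miR-27a KO libraries, where *BCAT1* was nearly absent.

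*FAH* fell 2.13-fold in miR-27a KO (-1.09, adjusted *p* = 0.00468) and *HGD* 1.66-fold (-0.73, adjusted *p* = 0.0175). *BCAT1* had 835 counts over the Scr libraries and 8 over the miR-27a KO libraries, a ratio of 117 per depth (95% exact counting interval 59.2 to 272, adjusted *p* = 0.00408). The 8 counts were 1 and 7, and the interval covers counting error only. The log2 fold change was -6.84, with -6.05 without miR-27a KO library 1 and -8.69 without library 2. *AGXT*, which clears glyoxylate with alanine, was -0.65 (adjusted *p* = 0.0353) and *GCSH*, of glycine cleavage, 0.70 (adjusted *p* = 0.0191). Neither passed 1.5-fold with the GC and length correction (-0.38 and 0.46). Without miR-27a KO library 1 the adjusted *p* was 0.149 for *HGD*, 0.174 for *AGXT* and 0.162 for *GCSH*, and without library 2 it was 0.0917, 0.239 and 0.183. *AGXT* was also under 1.5-fold without Scr library 1 (-0.47) and did not pass without the filter on low counts (adjusted *p* = 0.0641).

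Urea cycle genes belong to the periportal zone of the liver, and of 8 tested genes of that zone 4 fell in miR-27a KO and 1 rose (median -1.37). *ALB*, serum albumin, had 10249.5 and 15023 CPM in Scr, 7934 and 14889 CPM in miR-23a KO and 2087 and 2147 CPM in miR-27a KO. It fell 6.04-fold (-2.59, adjusted *p* = 0.00538), *APOA4* 4.61-fold (-2.20, adjusted *p* = 0.00784) and *FGB*, a fibrinogen chain, 4.13-fold (-2.05, adjusted *p* = 0.0212). *PCK1*, the gatekeeper of gluconeogenesis, had 127 counts over the Scr libraries and 2 over the miR-27a KO libraries, a ratio of 71.3 per depth (95% exact counting interval 19.3 to 595, adjusted *p* = 0.00701). *CDH1*, E-cadherin, rose 1.77-fold (0.83, adjusted *p* = 0.0337). Its call was lost without miR-27a KO library 1 (adjusted *p* = 0.0991), without library 2 (0.104) and without the filter on low counts (0.0651). *ALB* and *FGB* are also among the hepatocyte markers above.

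Of 14 tested genes of the perivenous zone, where glutamine synthesis takes over from urea synthesis, 2 rose and 2 fell (median 0.19). *LGR5*, a Wnt-responsive receptor, had 29.1 and 32.0 CPM in Scr, 16.7 and 53.8 CPM in miR-23a KO and 51.1 and 55.1 CPM in miR-27a KO, and *TBX3*, a transcription factor, had 231 and 167, 68.0 and 229, and 99.4 and 100.2 CPM. In miR-27a KO the 2 libraries of each gene lay outside Scr, above for *LGR5* and below for *TBX3*. *LGR5* rose 1.72-fold (0.78, adjusted *p* = 0.0166) and *TBX3* fell 2.02-fold (-1.01, adjusted *p* = 0.0245). The other 2 were *RHBG* and *SLC1A2*. Neither *LGR5* nor *TBX3* passed without miR-27a KO library 1 (adjusted *p* = 0.107 and 0.0541) or library 2 (0.185 and 0.0716), and *LGR5* was under 1.5-fold with the GC and length correction (0.58).

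Among 18 tested regulators of urea cycle genes, 1 rose and 0 fell in miR-27a KO (median -0.13). *PPARGC1A*, a coactivator of the fasting response, had 1.09 and 2.96 CPM in Scr, 0 and 0 CPM in miR-23a KO and 9.81 and 9.20 CPM in miR-27a KO. It rose 4.62-fold in miR-27a KO (2.21, adjusted *p* = 0.0374), a value that depended on the Scr library, at 1.68 without library 1 and 3.09 without library 2. That call was lost without miR-27a KO library 1 (adjusted *p* = 0.0927), without library 2 (0.101) and without the filter on low counts (0.0665). With a limit of 3 counts per library, its level in miR-23a KO was at least 10.3-fold lower than in Scr (5.56-fold against Scr library 1 and 15.01-fold against library 2), which did not pass the test. *HNF4A* and *CEBPA*, liver transcription factors that drive several urea cycle genes, were 0.24 (adjusted *p* = 0.112) and -0.28 (adjusted *p* = 0.272). *CEBPB*, a relative of *CEBPA*, had 194 and 98.9 CPM in Scr, 108 and 77.8 CPM in miR-23a KO and 65.7 and 65.3 CPM in miR-27a KO, below both Scr libraries, and did not pass (-1.18, adjusted *p* = 0.0678), though it passed by DESeq2, within replicate blocks and without either Scr library (-0.60 and -1.59).

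The genes most like these in pattern were sought among those with at least 100 counts, by Pearson r of log2 CPM over the 6 libraries. For *ARG2* they were *CEP85* (r = 0.997), *KDELC1* (0.992) and *DCDC1* (0.991) of 13052 genes. *CEP85* measured 62.1 and 58.8 CPM in Scr, 60.6 and 69.7 CPM in miR-23a KO and 49.8 and 50.1 CPM in miR-27a KO. It had the order of *ARG2*, highest in miR-23a KO library 2 and lowest in miR-27a KO. For *ARG1*, whose pattern is the gap between the miR-23a KO libraries, they were *LINC01232* (r = 0.985), *ADAT2* (0.984) and *LOC100506639* (0.983) of 13053 genes. With 6 libraries in 3 groups, so many genes include some with a high r.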

How the data were processed

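Polyadenylated RNA of 6 HepG2 libraries was sequenced by the authors, who name HISAT, StringTie, Cufflinks and GATK without versions or roles. The deposited columns are named FPKM but were read as estimated counts per gene (expected counts), not scaled for depth or length. The files do not state this. The reading rests on library totals of 14405250 to 16515261 and on whole values (no decimal part, with no tolerance). Whole values made up 70.5% for genes listed with 1 transcript against 39.4% for other genes. That totals differ between libraries does not tell counts from FPKM. Values were rounded, and genes with low counts were removed by filterByExpr. Each pair of groups was fitted by edgeR 4.0.16 (quasi-likelihood test, TMM scaling) in R 4.3.3, with Benjamini-Hochberg adjustment over every gene tested. Calls needed an adjusted *p* under 0.05 together with a change of more than 1.5-fold. Standard errors (SE) were derived from the fitted coefficient and the F statistic of the edgeR test.

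CPM used TMM factors over all 6 libraries. TPM, GC content and length came from the longest coding transcript of GENCODE release 29 (89.4% of genes matched). Log2 CPM had a prior count of 2. Alternatives were DESeq2 1.42.0, limma 3.58.1 on log2(CPM + 0.5), median-ratio size factors, no filter, a fit of all 6 libraries, replicate blocks, loess correction for GC content and length, both of the last together, and each library left out. Figures and tables used Python 3.11.15, numpy 2.4.6, pandas 2.3.3, scipy 1.17.1 and matplotlib 3.10.9. Fits against Scr were also run on simulated counts without a GC trend. Their spread was below that of miR-23a KO against Scr, so the simulation does not bear on that comparison.

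The genes and lists were chosen with earlier results of these data known. Of the lists, up to 6 called genes each with the largest absolute log2 fold change are named, beside selected direct partners, paralogs and regulators named whatever their values. The study's methods and the labels name different library kits, and strand handling is not given.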

Additional observations from a re-analysis of the deposited data

Results flagged for a closer look

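For 7 of the 144 listed genes tested in both comparisons with Scr (4.86%), the 10 genes and cell markers included, both miR-23a KO libraries were below both Scr libraries and both miR-27a KO libraries were above them, beside 4.10% of all 13556 genes so tested. *SLC38A4*, not among the 144, had the opposite pattern. The difference between the KO groups was tested in the fit of miR-23a KO against miR-27a KO, and in none of these 8 genes did it pass an adjusted *p* of 0.05 by edgeR. The 8 genes were chosen for a pattern that already holds such a difference. Its direction, and the calls below with a library left out, therefore restate the choice and are no separate test. *CDH1*, the periportal and epithelial cadherin, had 63.0 and 88.0 CPM in Scr, 21.9 and 11.4 CPM in miR-23a KO and 137 and 134 CPM in miR-27a KO, a log2 fold change of -3.04 between the KO groups (adjusted *p* = 0.123). *GLUL*, glutamine synthetase, was -1.05 (adjusted *p* = 0.694). *PPARGC1A*, the coactivator with 0 counts in both miR-23a KO libraries, was at least 48.3-fold higher in miR-27a KO, with a limit of 3 counts per library (adjusted *p* = 0.0990). The epithelial marker *EPCAM* was -1.73 (adjusted *p* = 0.173), lysozyme (*LYZ*) -3.29 (0.101), the receptor *AHR* -1.41 (0.336) and *SIRT5*, a mitochondrial deacylase, -0.63 (0.736), the last with miR-23a KO libraries (27.05 and 26.3 CPM) close to Scr (29.7 and 27.7 CPM). *SLC38A4*, an amino acid importer, was 4.71 (adjusted *p* = 0.191), from 9 and 8 counts in Scr, 12 and 48 counts in miR-23a KO and 1 count in each miR-27a KO library, too few to be tested in miR-27a KO against Scr. Without miR-23a KO library 1, then without library 2, the log2 fold change was -3.61 and -2.63 for *CDH1*, -0.63 and -1.67 for *GLUL*, -1.65 and -1.82 for *EPCAM*, -3.06 and -3.58 for *LYZ*, -1.34 and -1.49 for *AHR* and -0.67 and -0.60 for *SIRT5*, all of which passed, as did *PPARGC1A*, in fits that called 34.2% and 51.4% of all genes. *SLC38A4* passed without library 1 (5.25) and was not tested without library 2. With either of the miR-27a KO libraries left out, only *PPARGC1A* passed.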

How the results depend on the processing

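*ARG2* in miR-27a KO against Scr was lower under every alternative, from -0.75 to -0.64, and from -0.74 to -0.57 with 1 library left out. Its call was lost with all 6 libraries in 1 fit (0 of the 9 genes called) and without Scr library 1, miR-27a KO library 1 or library 2. The number of the 9 called ranged, over libraries left out, from 0 to 1 in either comparison against Scr and from 0 to 6 between the KO groups.

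For the further genes, 5 higher in miR-27a KO against Scr became 3 with the GC and length correction, without the filter and with block and correction together, and 0 in 1 fit (leaving out libraries, 0 to 9). The 16 lower became 2 in 1 fit and lay between 14 and 20 under the other alternatives (8 to 29). In miR-23a KO against Scr, 0 higher ranged from 0 to 18, and 0 lower became 2 by DESeq2, 1 in the replicate block and 1 with block and correction (0 to 18). Between the KO groups, 0 higher became 6 by DESeq2, 2 with the correction, 2 in 1 fit, 5 in the replicate block and 7 with block and correction (1 to 40). There, 0 lower became 2 by DESeq2, 1 with the correction, 2 in 1 fit, 1 by limma, 2 in the replicate block and 3 with block and correction (1 to 28).

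The share of all genes called, in either direction, moved as well and is the background for the counts above. In miR-27a KO against Scr it was 11.7% by DESeq2 and 12.3% in the replicate block. In miR-27a KO against Scr 10.3% became 9.63% with the correction, 4.62% without the filter, 11.3% with block and correction and 0.452% in 1 fit (2.34% to 25.99% leaving out libraries). For miR-23a KO against Scr 0% became 0.457% by DESeq2, 0.501% in the replicate block and 0.638% with block and correction (0.0280% to 18.6%). Between the KO groups 0% became 3.45% by DESeq2, 1.26% with the correction, 1.54% in 1 fit, 0.224% by limma, 2.89% in the replicate block and 5.43% with block and correction (0.5003% to 51.4%).

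Values that were not called turned sign in several settings, and the cause was not tested. In miR-23a KO against Scr, the replicate block gave -0.0019 for *CPS1*, -0.34 for *ARG1* and -0.20 for *NAGS*. Limma gave -0.0029, -0.013 and -0.20, and block and correction together gave -0.41 for *ARG1*, -0.10 for *NAGS* and 0.042 for *SLC25A15*. The correction alone gave -0.012 for *NAGS* and 0.039 for *SLC25A15*. In miR-27a KO against Scr the correction alone, then with the replicate block, gave 0.16 and 0.16 for *ASS1*, 0.19 and 0.20 for *ASL*, 0.047 and 0.045 for *GLS2*, -0.11 and -0.11 for *SLC25A13*, -0.047 and -0.048 for *OAT*, 0.019 and 0.024 for *CAD*, and -0.051 and -0.051 for *CA5A*. *CAD* was 0.0040 without the filter, and *CEBPA* 0.011 with block and correction. Between the KO groups, limma then the replicate block gave -0.0032 and -0.0023 for *CPS1* and -0.0018 and -0.0023 for *ASL*. Block and correction gave -0.11 for *ASL*, -0.24 for *ARG1* and -0.15 for *NAGS*, the block alone -0.22 for *ARG1*, the correction alone -0.042 for *NAGS*, and no filter -0.011 for *SLC25A15*.

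With 1 library left out, values in miR-23a KO against Scr ran from -0.90 to 0.78 for *CPS1*, -1.68 to 0.029 for *ASS1*, -0.90 to 0.86 for *ASL*, -6.43 to 1.65 for *ARG1*, -1.19 to 0.67 for *NAGS* and -0.54 to 0.081 for *GLUD1*. In miR-27a KO against Scr they ran from -0.20 to 0.078 for *CPS1*, -0.13 to 0.010 for *ASS1*, -0.14 to 0.082 for *ASL*, -1.03 to 0.52 for *ARG1*, -0.19 to 0.013 for *GLS2*, -0.062 to 0.51 for *GLUD1* and -0.18 to 0.19 for *CAD*. Between the KO groups they ran from -0.82 to 0.80 for *CPS1*, -1.67 to 0.094 for *ASS1*, -0.92 to 0.90 for *ASL*, -6.50 to 1.67 for *ARG1*, -0.96 to 0.96 for *NAGS* and -0.11 to 0.11 for *SLC25A15*. The -6.43 and -6.50 of *ARG1* set a group at 0 counts against the prior count and are no estimate of size.

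A lone library is assumed to vary like the other group. The labels give no pairing, so libraries in a replicate block share a number and no more. Deviations of same-numbered libraries from their group means correlated across genes at r = 0.149 for miR-23a KO with Scr. The r was 0.0103 for miR-27a KO with Scr and 0.0174 between the KO groups. The median of all genes was 0.16 in miR-23a KO against Scr and 0.11 between the KO groups. It was 0.14 and 0.12 with median-ratio size factors, 0.06 and 0.02 by limma, 0.20 and 0.17 with the correction, -0.05 and 0.0098 without miR-23a KO library 1, and -0.08 and -0.08 without library 2. Standard errors of the 9 genes ran from 0.43 to 1.38 (log2) in miR-23a KO against Scr and from 0.09 to 0.65 in miR-27a KO against Scr, and *OTC* and *ARG1* are limited by their counts.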

Other observations

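A few listed genes differed between the 2 Scr libraries and are named here after their values were seen. *ASNS*, asparagine synthetase, had 259 and 97.4 CPM in the Scr libraries 1 and 2, against 97.0 and 53.4 CPM in miR-23a KO and 54.7 and 56.5 CPM in miR-27a KO. *ATF4*, a transcription factor of the response to amino acid shortage, had 1008 and 613 CPM in Scr, 707 and 470 CPM in miR-23a KO and 782 and 789 CPM in miR-27a KO. *SLC7A1*, an arginine importer, had 210 and 139 CPM in Scr, 83.0 and 126 CPM in miR-23a KO and 126 and 125 CPM in miR-27a KO. Library 1 was the higher Scr library for these 3, chosen for it, while the amino acid transporters *SLC38A2* (130 and 139 CPM) and *SLC38A1* (50.1 and 77.4 CPM) were higher in Scr library 2, and the miR-27a KO libraries were close to each other. None of the 3 passed in miR-27a KO against Scr (adjusted *p* = 0.0664 for *ASNS*, 0.875 for *ATF4* and 0.160 for *SLC7A1*).

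*OAZ1*, the antizyme that directs ornithine decarboxylase to breakdown, had 789 and 740.0 CPM in Scr, 1485 and 540.2 CPM in miR-23a KO and 535 and 531 CPM in miR-27a KO. Its miR-27a KO libraries were the lowest of the 6 (log2 fold change -0.54, adjusted *p* = 0.0216), at under 1.5-fold.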
